A study of Mus musculus with 90 samples.

Results

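Potassium channel genes were followed across 5 subregions of the mouse brain. The genes were those whose name starts with Kcn, without Kcnj13 and Kcne2, which mark the choroid plexus epithelium, and without the Kcnip genes, which encode calcium-binding partners. This gave 88 of the 19962 genes measured. RNA was measured with the GeoMx Digital Spatial Profiler, which releases barcodes of hybridized probes by light from a chosen area of interest (AOI) and counts them by sequencing. The sections were 5 µm thick and came from formalin-fixed, paraffin-embedded brains of 6 mice under chronic social stress (CSS) and 4 controls. AOIs lay in the choroid plexus (CP), the hippocampal fields CA3 and CA1, the motor cortex (MC) and the somatosensory cortex (SS). Each carried a label of p16 high or p16 low, p16 being a product of Cdkn2a that halts the cell cycle and marks senescence. There were 46 p16 high and 44 p16 low AOIs, and the 20 combinations of stress, subregion and p16 label held 3 to 6 AOIs each. The sources used here do not give strain, genotype, age or how p16 status was assigned.

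Potassium channels let potassium leave or enter the cell along its gradient, and so set the resting potential, end the action potential and limit repeated firing. The voltage-gated (Kv) alpha subunits join as tetramers, some with cytoplasmic or membrane-spanning auxiliary subunits and some with silent alpha subunits that form no channel of their own. The inward rectifiers (Kcnj) include channels opened by G proteins and by a fall in ATP, the K2P channels (Kcnk) carry leak currents, and the Kcnma, Kcnn and Kcnt channels are opened by intracellular calcium or sodium. In hippocampal pyramidal cells they are known for the dendritic A-type current, the M-current and the afterhyperpolarization.

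Totals of recovered probe counts ran from 184469 to 2098984 per AOI, and the count of the median gene from 6 to 82. Values are probe signals on a common gene median per AOI, and no background was subtracted. The negative control probe lay at 10.8 to 18.1 on that scale. Of the 88 genes, 45 reached 2 times the negative probe, as the median over AOIs, in at least 1 subregion, 3 did so in all 5, and 43 in none, and 48.5% of all genes reached it somewhere. The 43 include all 4 Kcne genes, Kcnma1, the pore-forming subunit of the large-conductance calcium-activated (BK) channel, at a mean of 21.7, and Kcnu1, and their medians lay below 2 times the negative probe in every subregion. Signals come from different probes and were compared between samples, not between genes. An AOI holds many cells, so fewer cells of a type and less RNA per cell cannot be told apart.

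The labels of the subregions were checked on marker genes. Summed over 5 markers, CA3 pyramidal cell genes ran from 603 to 1200.1 in CA3 and from 108 to 152 in CA1, and 5 CA1 pyramidal cell genes from 128 to 284 in CA3 and from 1081 to 2113 in CA1. The highest CA1 sum in CA3 was that of mouse 1163, which had 1 CA3 AOI, and the other 9 mice lay between 128 and 169.7. The lowest CA3 sum, 603, was that of mouse 1175, and the other 9 mice lay between 781 and 1200.1. Each result on CA3 below was also computed without either. Choroid plexus epithelial genes summed to a median of 99521 in CP, 344 in CA3 and 159 in CA1. Cdkn2a itself had signals of 17.1 to 27.5 in p16 high AOIs (median 23.01), against 16.2 to 34.5 in p16 low ones (median 23.6), averaged over hippocampus and cortex, with a log2 difference of -0.038 (SE 0.11, adjusted p = 0.92). It was higher in p16 high AOIs in 5 of 10 mice, so the Cdkn2a probe gave no separate check of the label.

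On median scaling, by mean signal over mice, 8 of the 88 genes (9.09%) were highest in CP, 17 (19.3%) in CA3, 28 (31.8%) in CA1, 19 (21.6%) in MC and 16 (18.2%) in SS. Over all genes the shares were 26.4% in CP, 13.2% in CA3, 27.3% in CA1, 18.9% in MC and 14.2% in SS. CP was the lowest subregion for 59 of the 88 genes (67.0%) and for 28.8% of all genes, and CA1 for 18 of the 88 (20.5%) and for 28.2% of all genes. These shares include genes near background and carry no test. With 1 value per mouse and subregion, 53 of the 88 genes differed among CA1, CA3, MC and SS (limma moderated F test with the mouse as a block, Benjamini-Hochberg adjusted p under 0.05), and 48.5% of all genes did. With 75th percentile scaling 81 of the 88 did. The share of all genes under that scaling is not given here, so the 81 is not read as particular to these genes. The map by subregion shows 42 of the 45 genes that reached 2 times the negative probe in at least 1 subregion. A gene can have reached it only where it was high, so the map does not stand for all 88.

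**Figure D1:**
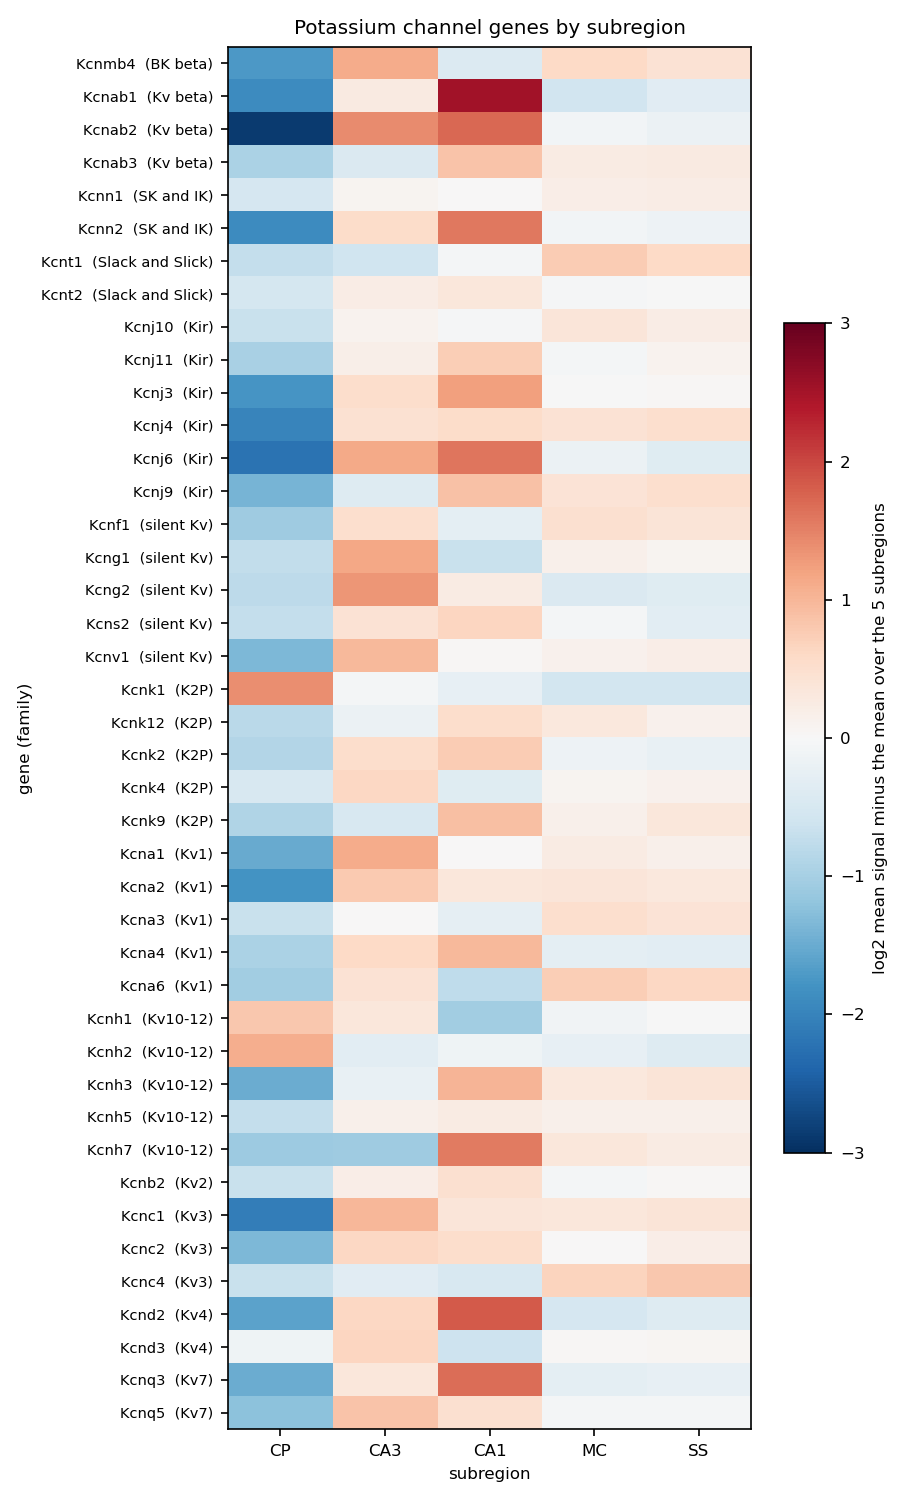
Mean signal of 42 of the 45 detectable potassium channel genes (rows, grouped by family) in CP, CA3, CA1, MC and SS (columns), as the log2 mean over 10 mice (9 in CP) minus the gene's mean over the 5 subregions. Kcnab1, Kcnh7 and Kcnq3 stand out in CA1, and Kcnk1, Kcnh1 and Kcnh2 in CP.

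CA3 and CA1 of the same mouse differed in a large share of the genes. Of the 88, 35 differed, 15 higher and 20 lower in CA3, where 17.7% of all genes were called, 5.04% higher and 12.7% lower (limma on log2(signal + 1) with the mouse as a block, adjusted p under 0.05 over all genes). All 3 Kv beta genes and 4 of 14 Kcnj genes were lower, and 5 of 10 silent Kv genes and 3 of 8 Kv1 genes were higher. In 12 of the 88 genes, 4 higher and 8 lower, the 10 CA3 and 10 CA1 values did not overlap, as in 1.82% of all genes. Calls were more frequent among genes of high signal, and reached 45.3% in the highest of 4 equal groups of all genes by mean signal, so the share among the 88 is not read as particular to them. With 75th percentile scaling the split was 18 higher and 15 lower, with quantile normalization 17 and 16, and with edgeR on recovered counts 15 and 22; 15 higher and 15 lower genes were called in all 4 settings, and no called gene changed sign.

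The largest log2 difference of the 88 genes was that of Kcnh7, which encodes an ERG-type voltage-gated channel. Its signal was 12.3 to 24.5 in CA3 (median 16.6), against 68.7 to 134 in CA1 (median 108). In all 10 mice CA3 was lower, near the level of the negative probe, and the ranges did not overlap; the log2 difference was -2.58 (SE 0.12, adjusted p = 2.46e-17). Kcnh3, an ELK-type channel of the same family, had 26.4 to 50.5 in CA3 (median 35.6), against 65.04 to 111 in CA1 (median 84.2), also without overlap, and differed by -1.23 (SE 0.10, adjusted p = 2.99e-11). Kcnh1, the EAG channel, went the other way. Its signal was 38.2 to 74.2 in CA3 (median 64.6), against 14.6 to 33.3 in CA1 (median 23.6), without overlap, at a log2 difference of 1.40 (SE 0.12, adjusted p = 5.62e-11). The Kcnh family as a whole had 2 of 8 members higher in CA3 and 2 lower.

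All 3 Kv beta subunit genes were lower in CA3. Kcnab1, whose product speeds inactivation of Kv1 channels, had signals of 46.3 to 105 in CA3 (median 87.1), against 271 to 549.9 in CA1 (median 385). The highest CA3 mouse stood far below the lowest CA1 mouse, and the log2 difference was -2.26 (SE 0.099, adjusted p = 5.07e-18). Kcnab3 had 12.3 to 29.4 in CA3 (median 23.1), against 42.5 to 67.4 in CA1 (median 54.8), again without overlap, and differed by -1.27. Kcnab2 differed by -0.36 (SE 0.077, adjusted p = 6.97e-04), with 237 to 636 in CA3 (median 513), against 384 to 749 in CA1 (median 601) and broad overlap.

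Of the 8 Kv1 alpha subunit genes, whose products assemble with Kv beta subunits, 3 were higher in CA3 and 1 was lower. Kcna1, an axonal low-threshold channel, had 116 to 281 in CA3 (median 224), against 68.5 to 123 in CA1 (median 101). CA3 was higher in 10 of 10 mice, by 1.09 (SE 0.076, adjusted p = 4.93e-13), although the lowest CA3 value lay within the CA1 range. Kcna6 had 31.9 to 68.1 in CA3 (median 52.3), against 17.2 to 31.4 in CA1 (median 20.98), without overlap, and differed by 1.18. The difference in mouse 1163 was 0.22, well below the 0.98 to 1.68 of the other mice. Kcna2 differed by 0.42 (SE 0.082, adjusted p = 2.18e-04). Kcna4, the A-type member of the family, differed by -0.39 (SE 0.12, adjusted p = 0.0166), a call that was lost in at least 1 of the other 3 settings. Kcna1 and Kcna6 lie next to each other on chromosome 6 (GRCm38.p6, 126636463 to 126645801 and 126708328 to 126740834), together with Kcna5 (126532551 to 126535555), which was not called. In the other Kv1 cluster, on chromosome 3, Kcna2 was called and its neighbours Kcna3 and Kcna10 were not.

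The 2 detectable genes of the Kv4 family, which carries the A-type current of dendrites, moved in opposite directions. Kcnd2 had 43.5 to 101 in CA3 (median 58.5), against 95.6 to 208 in CA1 (median 151), and differed by -1.23 (SE 0.089, adjusted p = 1.36e-12). Only the highest CA3 mouse reached into the CA1 range. Kcnd3 had 36.3 to 76.04 in CA3 (median 46.5), against 5.52 to 28.4 in CA1 (median 22.8), without overlap, at 1.31 (SE 0.19, adjusted p = 1.97e-06). Mouse 1170, with 1 CA1 AOI at a median gene count of 8, differed by 3.21, and the other mice by 0.40 to 2.17. In the Kv7 family Kcnq3, an M-current subunit, had 37.4 to 64.4 in CA3 (median 52.5), against 98.5 to 192 in CA1 (median 129.7), without overlap, and differed by -1.29 (SE 0.1, adjusted p = 6.48e-12). Kcnc1, a fast delayed rectifier, differed by 0.64 and was higher in CA3.

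Of the 10 silent Kv genes, 5 were higher in CA3 and 0 were lower. Kcng1, which alters the gating of Kv2 channels, had signals of 14.7 to 77.8 in CA3 (median 52.3), against 10.2 to 18.6 in CA1 (median 14.6). In 9 mice CA3 lay above every CA1 value, and mouse 1163 had the lowest CA3 signal. The log2 difference was 1.66 (SE 0.15, adjusted p = 1.30e-10), and 1.79 without that mouse. Kcng2 differed by 1.07 (SE 0.12, adjusted p = 3.54e-08), Kcnv1 by 0.88 (SE 0.12, adjusted p = 1.76e-06) and Kcng3 by 0.72 (SE 0.15, adjusted p = 4.48e-04). Kcnv1 had 45.8 to 119 in CA3 (median 83.5), against 26.97 to 59.3 in CA1 (median 41.4), with overlap. Its difference was only 0.016 in mouse 1182 and 0.084 in mouse 1175, and 0.50 to 1.59 in the other mice. The CA1 signals of Kcng1 and Kcng3 lay close to the negative probe. No background was subtracted, so log2 differences there are understated.

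Among calcium-activated channels, the BK auxiliary subunit gene Kcnmb4 was higher in CA3. Its signal was 71.1 to 156 in CA3 (median 114), against 19.6 to 48.3 in CA1 (median 41.1). Each CA3 value exceeded every CA1 value, and the log2 difference was 1.52 (SE 0.12, adjusted p = 2.33e-11). Mouse 1169 differed by 2.75, and the other 9 mice by 0.69 to 1.70. Kcnn2, a small-conductance (SK) channel of the afterhyperpolarization, had 54.2 to 125 in CA3 (median 82.3), against 116 to 245 in CA1 (median 163) and was lower in CA3 in every mouse, at a log2 difference of -1.04 (SE 0.089, adjusted p = 6.71e-11). The pore gene Kcnma1, at background in most AOIs, did not pass at 0.07 (SE 0.13, adjusted p = 0.79).

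The 3 neuronal G protein-gated inward rectifier subunit genes were lower in CA3. Kcnj9 had 22.1 to 58.8 in CA3 (median 34.5), against 68.5 to 119 in CA1 (median 82.8), without overlap, and differed by -1.26 (SE 0.12, adjusted p = 1.22e-09). Kcnj3 differed by -0.70 (SE 0.088, adjusted p = 2.10e-07) and Kcnj6 by -0.47 (SE 0.076, adjusted p = 1.40e-05), each lower in 10 of 10 mice. Kcnj10, the inward rectifier of astrocytes, which neighbours Kcnj9 on chromosome 1, did not pass, at 0.19 (SE 0.13, adjusted p = 0.379). Of the K2P leak channels, Kcnk9 had 14.5 to 33.4 in CA3 (median 20.8), against 34.3 to 71.7 in CA1 (median 55.9), and differed by -1.38 (SE 0.11, adjusted p = 1.30e-11); the ranges stood apart. Kcnk4, a mechanosensitive leak channel, was higher in CA3 by 0.98 (SE 0.14, adjusted p = 2.91e-06). The plot of 32 of the 35 genes gives all mice.

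**Figure D2:**
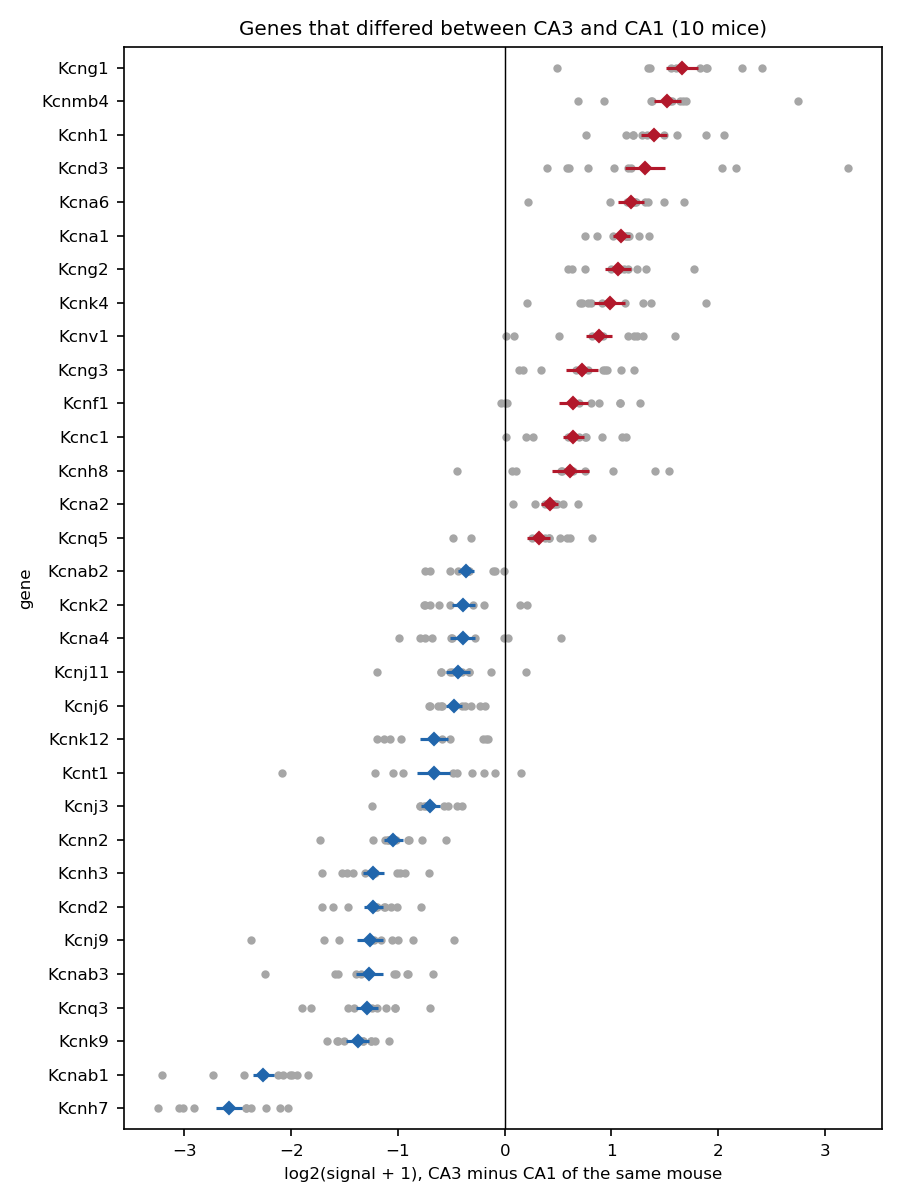
The plot shows 32 of the 35 genes that differed between CA3 and CA1, sorted by fitted difference. The horizontal axis is log2(signal + 1) in CA3 minus that in CA1 of the same mouse. Grey points are the 10 mice, and diamonds the fitted difference with its SE (red higher in CA3, blue lower). Kcnh7 and Kcnab1 stand apart at the lower end, and Kcng1 and Kcnmb4 lead the upper end.

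Other genes of potassium channel complexes differed as well. Of 27 partner genes (subunits, anchoring and trafficking proteins, HCN channels and 1 AMPA receptor auxiliary), 4 were higher and 10 lower in CA3. Over all genes 5.04% were called higher and 12.7% lower. The 4 with the smallest p were Pex5l, a subunit of HCN channels, at -3.03, Lgi1, a secreted ligand of Kv1 and AMPA receptor complexes, at 0.96, its receptor Adam22 at -0.81 and the Kv4 partner Kcnip4 at -0.85 (log2, CA3 minus CA1, all called). Cell markers moved too: astrocyte genes summed to a median of 637 in CA3 and 376 in CA1, oligodendrocyte genes to 503 in CA3 and 296 in CA1, and general neuron genes to 4949 in CA3 and 2473 in CA1, with 3, 4 and 3 genes of these lists called higher and 1 neuron gene lower. Excitatory neuron genes went the other way in sum, with medians of 5362 in CA3 and 6989.6 in CA1, and of these 4 genes 1 was called higher and 2 lower. Inhibitory neuron genes summed to 426 in CA3 and 472 in CA1, with 1 of 6 called lower. The part of these markers in the channel differences was not tested. The count of called genes was 32 without the CA3 AOIs of mouse 1175 and 32 to 37 when 1 mouse was left out.

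Promoter sequences were examined for motifs that the genes share. RefSeq windows of 250 bases before to 50 after a start site were matched for 63 of the 88 genes (82 windows). The motif CAGCTG, an E-box core that reads alike on both strands, occurred in windows of 3 of 11 genes that were higher in CA3, 2 of 10 that were lower and 10 of 42 that were not called, against 18.3% of all genes with a window. The 3 genes that were called higher in CA3 and carry the motif are shown, with the motif in capitals, on build GRCm38.p6. Kcna2 is at chr3:107101317-107101616 (plus strand), Kcnd3 at chr3:105451640-105451939 (plus strand) and Kcnk4 at chr19:6934466-6934765 (minus strand), each 5′ to 3′ along the gene.
Kcna2: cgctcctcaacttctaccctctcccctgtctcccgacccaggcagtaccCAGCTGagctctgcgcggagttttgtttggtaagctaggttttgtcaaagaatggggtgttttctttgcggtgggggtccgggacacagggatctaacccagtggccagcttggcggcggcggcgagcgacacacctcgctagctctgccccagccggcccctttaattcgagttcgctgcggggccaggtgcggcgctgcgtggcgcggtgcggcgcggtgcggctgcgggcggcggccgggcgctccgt
Kcnd3: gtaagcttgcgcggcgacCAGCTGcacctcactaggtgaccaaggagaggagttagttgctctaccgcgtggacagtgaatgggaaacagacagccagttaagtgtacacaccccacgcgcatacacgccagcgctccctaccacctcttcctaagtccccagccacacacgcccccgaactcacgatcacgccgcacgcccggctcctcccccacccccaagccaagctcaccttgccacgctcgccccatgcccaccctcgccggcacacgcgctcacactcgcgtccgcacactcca
Kcnk4: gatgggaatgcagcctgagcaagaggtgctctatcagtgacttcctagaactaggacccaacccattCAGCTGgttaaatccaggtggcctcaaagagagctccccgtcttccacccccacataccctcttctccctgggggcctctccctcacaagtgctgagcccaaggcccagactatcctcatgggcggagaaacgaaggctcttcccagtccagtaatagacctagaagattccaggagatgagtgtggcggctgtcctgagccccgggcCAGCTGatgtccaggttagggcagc
The Kcna2 and Kcnd3 windows hold 1 match each and the Kcnk4 window 2. A match describes these letters only. Searches for TGACGTCA, the cyclic AMP response element, and GCGTGGGCG, the EGR motif, on both strands found a match in 0 of the 82 windows, against 1.79% and 0.61% of all windows. By window, CAGCTG occurred in 25.61% of the 82 and 16.3% of all. Another E-box core, CAGATG, was in 15.85% against 17.15%, and the TATA box TATAAA in 4.88% against 13.62%. The median GC content was 58.2% in the 82 windows and 52.7% in all, and its part in these shares was not tested.

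The signals of 6 genes are drawn by mouse to show how the differences ran over the subregions. On median scaling, Kcnh7, Kcnab1 and Kcnq3 peaked in CA1, Kcnmb4 and Kcnd3 in CA3, and Kcnk1, a K2P leak channel, in CP. The sign of the Kcnmb4 difference between CA3 and cortex depended on the setting, as given below.

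**Figure D3:**
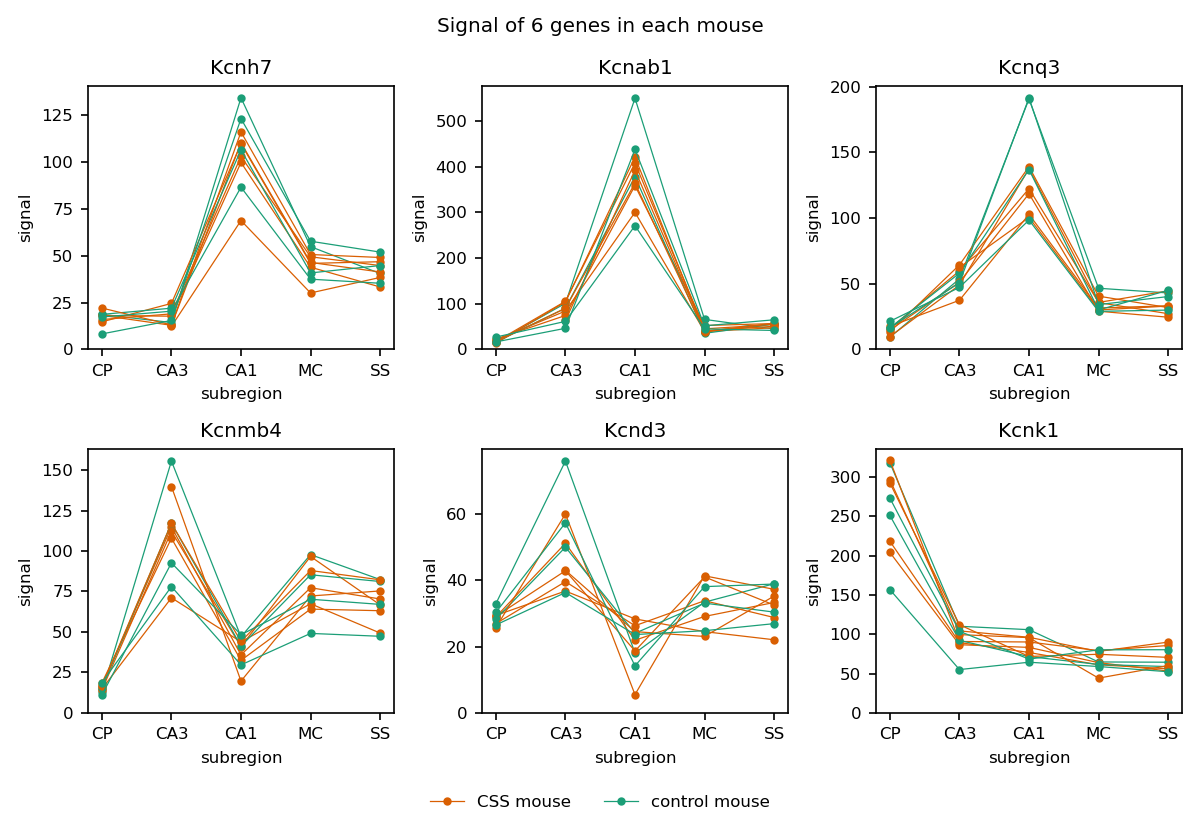
Signal (vertical axis, scaled probe signal) of Kcnh7, Kcnab1, Kcnq3, Kcnmb4, Kcnd3 and Kcnk1 in CP, CA3, CA1, MC and SS. Each line joins the subregions of 1 mouse, orange for the 6 CSS mice and green for the 4 control mice. CSS and control lines are interleaved, and Kcnh7, Kcnab1 and Kcnq3 peak in CA1 in all 10 mice, while Kcnk1 peaks in CP in the 9 mice with a CP AOI.

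Against cortex (the mean of MC and SS of the same mouse), 48 of the 88 genes differed in CA1, 26 higher and 22 lower, where 48.3% of all genes were called (33.9% higher, 14.4% lower). In CA3 41 differed, 26 higher and 15 lower, where 33.8% of all genes were called (27.5% higher, 6.23% lower). Both comparisons share the cortex AOIs. These counts depend on the scaling: the 75th percentile gave 15 higher and 59 lower in CA1 (with the median of all genes at -0.45) and 23 higher and 44 lower in CA3 (median -0.27), edgeR on recovered counts 23 and 43 in CA1 and 26 and 32 in CA3, and quantile normalization 15 and 26 in CA1 and 15 and 18 in CA3. Shares of all genes are given for median scaling only, so the counts under the other settings are not read as particular to the 88. Called with 1 sign in all 4 settings were 13 higher and 18 lower genes in CA1, and 14 higher and 13 lower in CA3. Of the called genes 8 changed sign in CA1 and 6 in CA3, among them Kcnj9 and Kcnk1 in CA1 and Kcna2, Kcnc1, Kcnh1, Kcnk1 and Kcnmb4 in CA3. The upper quartile of genes stood at 3.48 times the negative probe in CA1, 2.88 in CA3, 2.03 in MC and 2.10 in SS, so signal over background moved with these groups, and its part was not tested.

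Kcnab1 was the gene most enriched in CA1. Its signal was 271 to 549.9 in CA1 (median 385), against 43.4 to 58.4 in cortex (median 47.95), at a log2 difference of 2.96 (SE 0.065, adjusted p = 6.47e-26). In CA3 the difference from cortex was 0.70 (SE 0.11, adjusted p = 4.91e-06) and was not called in every setting. Kcnd2 had 95.6 to 208 in CA1 (median 151), against 24.3 to 39.5 in cortex (median 29.8), 2.25 higher in CA1 (adjusted p = 2.46e-21) and 1.02 higher in CA3 (adjusted p = 2.59e-10). For both genes the lowest CA1 mouse stood above the highest cortex value. Other genes called higher in CA1 in all settings were the M-current subunit Kcnq3 (1.90), Kcnab2 (1.87), Kcnj6 (1.85), Kcnn2 (1.70), Kcna4 (1.23) and Kcnh7 (1.23). Their ranges did not overlap those of cortex, as was true of 16 of the 88 genes and of 12% of all genes.

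CA3 shared some of these differences from cortex and had others of its own sign. Kcnab2 was 1.51 higher in CA3 and Kcnj6 1.37, each in all 4 settings and without overlap, as was true of 11 of the 88 genes and of 4.11% of all genes. Kcng2 led the list, with 25.2 to 78.5 in CA3 (median 45.7), against 12.4 to 20.5 in cortex (median 13.9) and a log2 difference of 1.65 (SE 0.13, adjusted p = 3.03e-11). All 10 CA3 values exceeded the cortex range, where the gene was at background. Kcnh7 was 1.23 (SE 0.067, adjusted p = 2.11e-16) in CA1 but -1.35 (SE 0.12, adjusted p = 1.14e-10) in CA3. It was thus above cortex in one hippocampal field and below it in the other, with signals of 12.3 to 24.5 in CA3 (median 16.6), against 34.2 to 54.7 in cortex (median 45.05). Across the 3 areas Kcnh7 ran CA1, cortex, CA3 from high to low, with no overlap between neighbours.

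Other genes were lower in CA1 or CA3 than in cortex. Kcna6 had 17.2 to 31.4 in CA1 (median 20.98), against 46.5 to 74.1 in cortex (median 62.4), and was lower in CA1, at a log2 difference of -1.43 (SE 0.099, adjusted p = 9.17e-14); in CA3 it did not pass, at -0.24 (SE 0.10, adjusted p = 0.0629). Kcnc4, a fast-inactivating Kv3 channel, was lower in both fields without overlap, at -1.24 (SE 0.12, adjusted p = 2.53e-10) in CA1 and -1.07 (SE 0.11, adjusted p = 1.72e-09) in CA3. Kcnt1, a sodium-activated channel, was lower in both, at log2 differences of -0.73 in CA1 and -1.39 in CA3, with 19.7 to 43.1 in CA3 (median 34.6), against 54.3 to 99.2 in cortex (median 78.5) and no overlap in CA3. Kcnh1 and Kcnmb4 were lower in CA1 than in cortex, at -1.01 and -0.94, with adjusted p of 8.99e-09 and 1.05e-09. The astrocyte genes Kcnj10 and Kcnj16, partners in one inward rectifier, were lower in CA1, at log2 differences of -0.36 and -0.44. The mice spread widely: Kcnj10 ran from -1.19 to 0.43, above 0 in mice 1151 and 1170, and Kcnj16 from -1.37 to -0.011. The summed astrocyte markers had medians of 376 in CA1, 533 in MC and 538 in SS, and oligodendrocyte markers 296 in CA1, 677 in MC and 762 in SS. Excitatory neuron markers summed to 5362 in CA3 and 6989.6 in CA1, against 2919 in MC and 2901 in SS, with 3 of 4 higher and 1 lower in CA3 and 4 of 4 higher in CA1. Inhibitory neuron markers summed to 426 in CA3 and 472 in CA1, against 743 in MC and 555 in SS. The part of these markers in the channel differences from cortex was not tested.

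**Figure D4:**
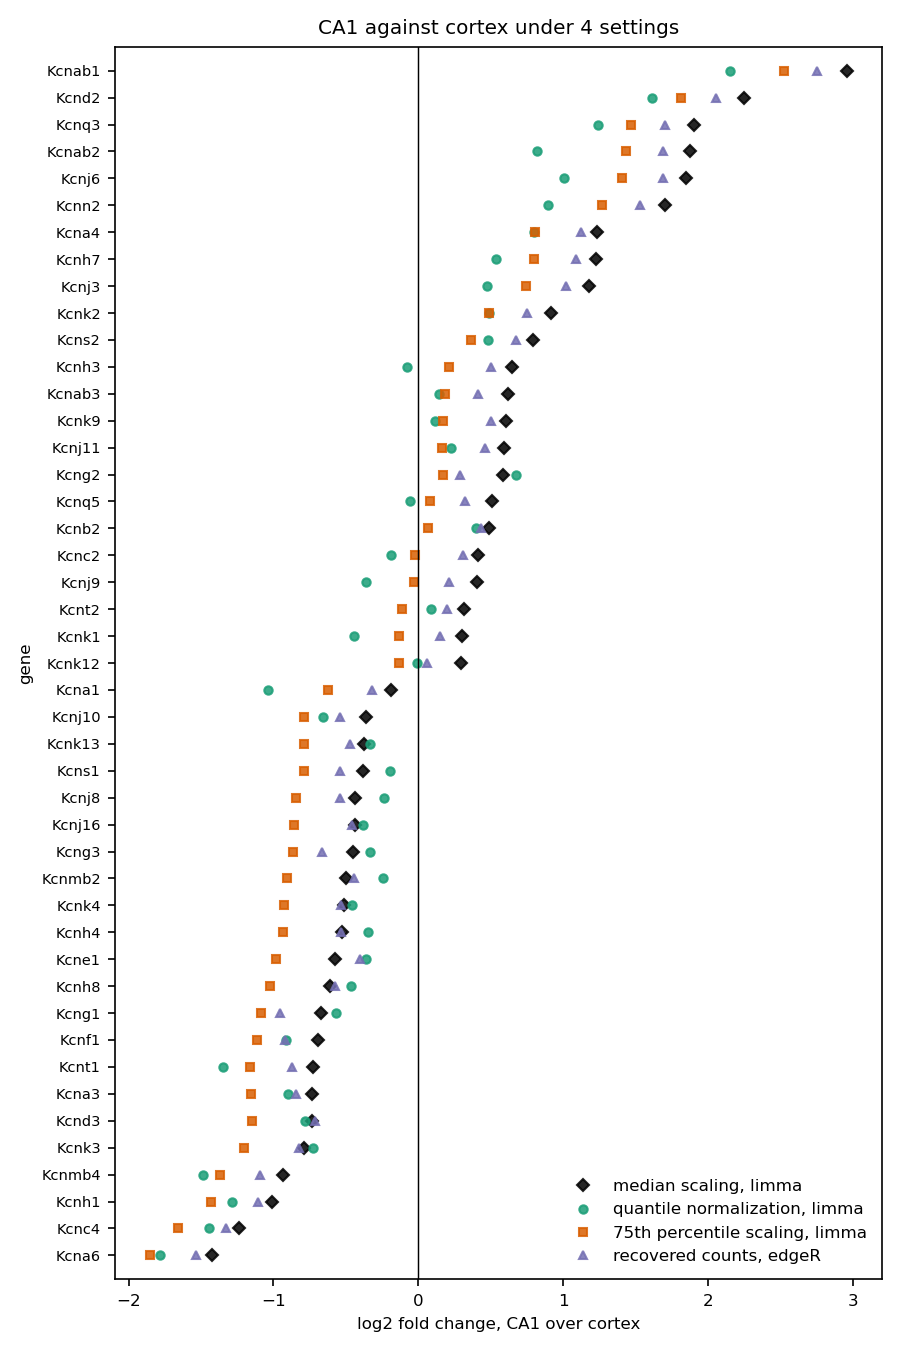
Log2 fold change of CA1 over cortex for 45 of the 48 genes called with median scaling, under 4 settings: median scaling with limma, quantile normalization with limma, 75th percentile scaling with limma, and recovered counts with edgeR. The 11 genes at the top, Kcnab1 to Kcns2, lie right of 0 in all 4 settings, and 7 genes below them change side.

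Of the 27 partner genes, 17 were higher and 4 lower in CA1 than in cortex, and 12 higher and 3 lower in CA3. Of all genes, 33.9% were called higher and 14.4% lower in CA1, and 27.5% and 6.23% in CA3. The partner counts are from median scaling. Cnih2, an AMPA receptor auxiliary subunit, led both, at 2.61 in CA1 and 2.32 in CA3. The Kv4 auxiliary gene Dpp6 was at 2.04 and 1.67, and the Kv4 partner Kcnip2 at 1.86 and 1.71 (log2, CA1 and then CA3, each minus cortex).

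Between the cortical areas 0 of the 88 genes differed, and 0% of all genes did (limma). At an unadjusted p under 0.05 there were 9, where 5.51% of all genes passed, and edgeR called 0 of the 88. The smallest p belonged to Kcng3, which had 17.7 to 37.5 in MC (median 23.4), against 10.4 to 23.7 in SS (median 17.96) and a log2 difference of 0.39 (SE 0.12, adjusted p = 0.796). Kcnt1 was at 0.19 (SE 0.071, adjusted p = 0.89) and Kcnab1 at -0.23 (SE 0.094, adjusted p = 0.903), all with overlapping ranges. Fitted differences of the 88 genes lay between -0.25 and 0.39, with a median SE of 0.11.

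The choroid plexus, a secretory epithelium, had little of most neuronal channels and more of a few others. In 9 mice with a CP AOI, 51 of the 88 genes differed from the hippocampus and cortex of the same mouse, 4 higher and 47 lower in CP, where 40.2% of all genes were called (20.6% higher, 19.6% lower). Kcnk1 had signals of 157 to 321 in CP (median 273), against 57.6 to 92.1 in hippocampus and cortex (median 82.2). The lowest CP value lay above every other value, and the log2 difference was 1.72 (SE 0.061, adjusted p = 9.16e-15). Kcnh2, the ERG channel that repolarizes the heart, had 51.1 to 95.1 in CP (median 68.6), against 22.99 to 32.8 in hippocampus and cortex (median 26.96), also without overlap, and differed by 1.32 (SE 0.10, adjusted p = 8.69e-10). Kcnh1 had 52.3 to 98.9 in CP (median 91.7), against 33.2 to 52.2 in hippocampus and cortex (median 46.2), and was 1.002 higher, with a narrow gap between the ranges. The gap is to the average of the other areas, and the Kcnh1 signals of CA3 alone, given above, overlapped the CP range. Kcnj8, the pore of vascular ATP-sensitive channels, was at 0.37 (SE 0.13, adjusted p = 0.0231), near background, and lost its call when any of 4 mice was left out. Markers of mural cells summed to a median of 188 in CP, against 99.1 in CA1, 114 in CA3, 130.4 in MC and 119 in SS, and their part in the Kcnj8 value was not tested.

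The 47 lower genes included all 3 Kv beta genes, 7 of 10 silent Kv genes, 7 of 14 Kcnj genes and 6 of 14 K2P genes. Some of these were not detectable in any subregion. Only 5 silent Kv, 6 Kcnj and 5 K2P genes reached 2 times the negative probe somewhere. The background ratio (median gene over negative probe) averaged 1.67 in CP, 1.70 in CA1, 1.57 in CA3, 1.35 in MC and 1.40 in SS. Its part in the lower calls was not tested. Kcnab2 had 11.03 to 29.7 in CP (median 24.7), against 207 to 443 in hippocampus and cortex (median 364), a log2 difference of -3.56 (SE 0.13, adjusted p = 1.16e-14). Also lower were Kcnj6 at -2.79, Kcnc1 at -2.59 and Kcnj4, an inward rectifier of excitatory synapses, at -2.47. The CP medians of these 4 genes were 15.8 to 24.7, near the negative probe, which bounds the log2 values. CP and the other areas did not overlap in 37 of the 88 genes, 34 of them lower in CP, and in 18.2% of all genes. Excitatory neuron markers summed to a median of 118 in CP, against 2901 to 6989.6 in the other subregions. In contrast, Kcna1 stayed above the negative probe in CP, with 25.4 to 44.8, although it fell by 1.86 on the log2 scale.

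Of the partner genes 1 was higher and 19 were lower in CP, where 20.6% of all genes were called higher and 19.6% lower. The 4 with the smallest p were Cnih2 at -3.50, the axon-initial-segment anchor Ank3 at -2.26, Pex5l at -2.61 and Dpp6 at -2.49 on the log2 scale, all lower in CP. The calls kept 1 sign in all 4 scalings and tests for 4 higher and 46 lower of the 51 channel genes.

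When p16 high AOIs were set against the p16 low ones within mouse and subregion and averaged over hippocampus and cortex, 0 of the 88 genes passed (limma), and 0.386% of all genes did, all higher in p16 high AOIs. At an unadjusted p under 0.05 there were 12 channel genes, 10 higher and 2 lower, where 14.2% of all genes passed. The nearest to the threshold was Kcnab2, with 216 to 549 in p16 high AOIs (median 396), against 197 to 351 in p16 low AOIs (median 336). It was higher in 9 of 10 mice, with overlapping ranges, at a log2 difference of 0.22 (SE 0.052, adjusted p = 0.0503). Kcnj4 had 84.2 to 166 in p16 high AOIs (median 131), against 71.8 to 138 in p16 low AOIs (median 109) and was at 0.24 (SE 0.064, adjusted p = 0.0812), higher in 8 of 10 mice. Kcnj6 was at 0.18 (SE 0.063, adjusted p = 0.155) and the near-background inward rectifier Kcnj5 at -0.39 (SE 0.13, adjusted p = 0.147). Other settings called 0 to 2 of the 88: Kcnab2 with a pseudocount of 10, Kcnj4 with edgeR, Kcnab2 and Kcnj4 among genes above the median signal or without mouse 1152, and Kcnab2 without mouse 1168, without mouse 1182 or with the background ratio as a covariate. Both differences were smaller under other scalings (limma). Quantile normalization gave 0.072 for Kcnab2 (adjusted p = 0.85) and 0.10 for Kcnj4 (adjusted p = 0.85). With 75th percentile scaling Kcnab2 was at 0.13 (adjusted p = 0.277) and Kcnj4 at 0.15 (adjusted p = 0.33).

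Other measures moved with the p16 label. The ratio of the gene median to the negative probe was higher in p16 high AOIs in 9 of 10 mice, and excitatory neuron markers were higher in 10 of 10, with sums of 3131 to 6949 in p16 high AOIs (median 4693) against 2636 to 5418 in p16 low AOIs (median 4357). With the background ratio as a covariate, Kcnab2 was called, as given above. The part of the excitatory neuron markers in the channel values was not tested. The median log2 difference was 0.022 over the 88 genes and 0.026 over all genes.

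**Figure D5:**
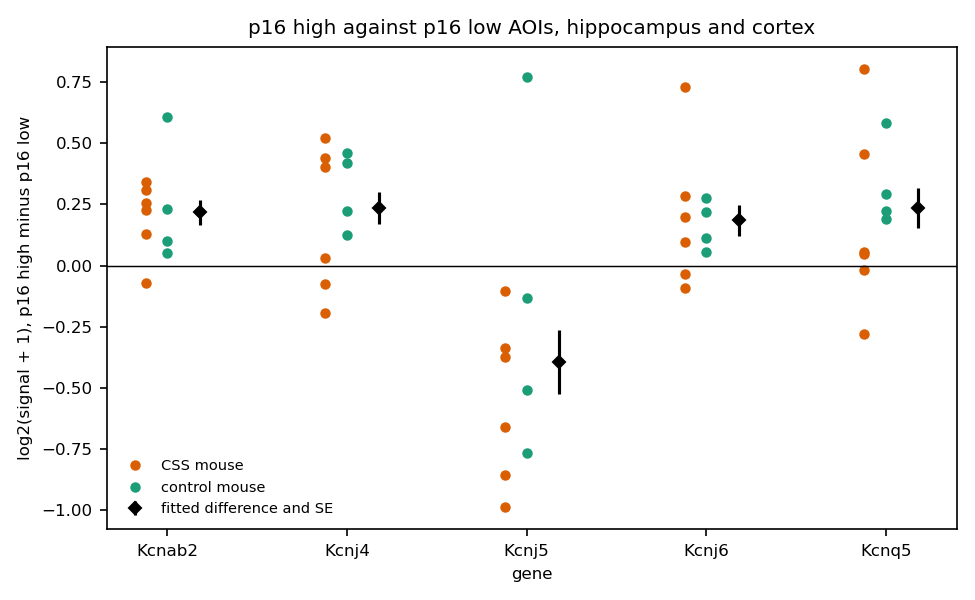
The plot shows 5 of the 6 potassium channel genes with the smallest p between p16 high and low AOIs, over hippocampus and cortex. The vertical axis is log2(signal + 1), p16 high minus p16 low, averaged over subregions. Points are mice (orange CSS, green control), and black diamonds the fitted difference with its SE. Kcnab2 is above 0 in 9 of 10 mice, and 0 of the 5 passed the adjusted threshold.

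Within single subregions 0 of the 88 genes passed in CA1, CA3, MC, SS or CP (limma), with 9, 13, 3, 6 and 5 at an unadjusted p under 0.05, where 11.8%, 13.3%, 4.99%, 4.5% and 5.24% of all genes passed. At the adjusted threshold all genes passed at 0.0902% in CA1 and 0% in the other 4, and edgeR called 0 of the 88 in each. In CA3 of 8 mice, Kcnab2 had 260.2 to 885 in p16 high AOIs (median 571), against 213 to 495 in p16 low AOIs (median 415) and was at 0.40 (SE 0.12, adjusted p = 0.188). Kcnv1 was at 0.53 (SE 0.16, adjusted p = 0.188), Kcnj4 at 0.67 (SE 0.22, adjusted p = 0.198) and the silent subunit gene Kcnf1 at -0.62 (SE 0.21, adjusted p = 0.203). These 4 genes passed when mouse 1152 was left out, with log2 differences of 0.49, 0.69, 0.93 and -0.83, and 0 of the 88 passed in CA3 in the other settings run.

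Between CSS and control mice 0 of the 88 genes passed over hippocampus and cortex (limma), and 0% of all genes did. There were 0 channel genes at an unadjusted p under 0.05, where 1.95% of all genes passed, and edgeR called 0. The smallest p belonged to Kcnk5, a K2P channel near background, with 13.7 to 17.6 in the 6 CSS mice (median 16.4) and 16.6, 16.9, 19.3 and 21.2 in the 4 control mice. The groups overlapped, and the log2 difference was -0.21 (SE 0.12, adjusted p = 0.99969). Kcnh8, an ELK-type channel, had 16.7 to 21.01 in the 6 CSS mice (median 18.1) and 19.2, 20.7, 22.9 and 22.8 in controls, at -0.20 (SE 0.11, adjusted p = 0.99969). Kcnk2, a mechanosensitive leak channel, had 38.6 to 47.4 in the 6 CSS mice (median 43.1) and 47.2, 35.9, 28.8 and 41.5 in controls, at 0.15 (SE 0.12, adjusted p = 0.99969). The groups overlapped for both genes. Over the 88 genes the differences lay between -0.21 and 0.16, with SE of 0.11 to 0.23.

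Single subregions gave 0 calls as well (limma and edgeR), where 0% of all genes were called, and 3, 3, 2, 2 and 4 channel genes at an unadjusted p under 0.05 in CA1, CA3, MC, SS and CP, where 2.9%, 2.88%, 2.76%, 3.65% and 3.22% of all genes passed. In CA1 the sodium-activated channel gene Kcnt2 had 33.3 to 46.9 in the 6 CSS mice (median 38.3) and 32.00, 32.8, 26.1 and 19.3 in controls. The groups did not overlap, as in 0.531% of all genes, and the difference was 0.49 (SE 0.21, adjusted p = 0.99999). In CA3 the astrocyte gene Kcnj10 had 33.4 to 36.2 in the 6 CSS mice (median 34.6) and 28.7, 31.01, 25.5 and 24.3 in controls, again apart, as in 0.561% of all genes, at 0.34 (SE 0.18, adjusted p = 0.99976). Kcnn4, the intermediate-conductance calcium-activated channel, near background, had 11.5 to 14.9 in the 6 CSS mice (median 12.8) and 17.8, 17.8, 17.7 and 15.4 in controls, also apart, at -0.38 (SE 0.22, adjusted p = 0.99976). None of the 3 passed the adjusted threshold. The p16 difference did not differ detectably between CSS and control mice for any of the 88 genes (limma interaction, 0 called, 0% of all genes, edgeR 0; 2 at an unadjusted p under 0.05, where 3.32% of all genes passed), with a median SE of 0.20.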

How the data were processed

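The deposited table holds 19962 genes in 90 AOIs as signal values: per the values themselves and the file's own label, the authors multiplied probe counts by 1 factor per AOI so that all AOIs share a gene median. Per the submitters' processing notes the build was mm10; no source used here names a counting tool or filter. Dividing by each AOI's step gave whole counts (within 0.01) for at least 99.985% of genes in every AOI, and 3 genes had values that were not whole.

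Samples were grouped by the labels. AOIs were averaged per mouse and subregion (and per p16 label where that was compared), so the mouse was the replicate, and signals were tested as log2(signal + 1) in limma 3.58.1 (R 4.3.3) with the mouse as a block where it held both sides, an intensity trend and Benjamini-Hochberg adjustment over all genes at 0.05. Fold changes on that scale understate changes of low genes. The pairing came from the same animal; deviations of CA3 and CA1 of 1 mouse correlated at a median r of 0.027 (-0.021 to 0.671, 4 of 10 above 0.1). Recovered counts were tested with edgeR 4.0.16 as an alternative; others were a pseudocount of 10, genes above the median signal, quantile and 75th percentile scaling, no block, a random block, a background covariate and leaving out each mouse. The fits were also run on simulated counts with known changes. These held no differences between mice, so they do not check how the fits handle variation between mice. Tables and plots used Python 3.11.15, pandas 2.3.3 and matplotlib 3.10.9. Promoter windows and gene positions were RefSeq's on GRCm38.p6, and all 88 genes matched.

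The text names, per comparison, up to 10 called genes at each end by log2 fold change, the 5 smallest p where fewer than 5 were called, the brightest gene of each family, 24 listed genes, and the 4 partner genes of smallest p; further genes were named after their values were seen. Some genes that the rule names are not reported here by name and are left out of the plots and of the outlier test, but stay in the counts over the 88 genes. The members and all lists were chosen with earlier results of these data known.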

Additional observations from a re-analysis of the deposited data

Results flagged for a closer look

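In 15 of 168 groups of 4 to 10 mice, 1 mouse stood apart from the others by Dixon's test. Chance does so in about 1 of 20 independent, normal groups of equal precision. The groups here share mice and AOIs, and depth and AOI number differ between mice, so the 15 is not read against that rate. Values are log2 differences within a mouse, except for stress. Between CA3 and CA1, Kcnmb4 in mouse 1169 was at 2.75, with the others between 0.69 and 1.70. Kcna6 in mouse 1163 was at 0.22, with the others between 0.98 and 1.68. Between CA1 and cortex, Kcna4 in mouse 1169 was at 0.27, with the others between 1.06 and 1.59. Kcnmb4 in mouse 1169 was at -1.86, with the others between -1.09 and -0.39. Between CA3 and cortex, Kcng1 in mouse 1163 was at -0.54, with the others between 0.68 and 1.42. Between CP and the other areas, Kcnab2 in mouse 1182 was at -4.78, with the others between -3.63 and -2.79. For p16 high against low in hippocampus and cortex, Kcnj5 in mouse 1151 was at 0.77, with the others between -0.99 and -0.10. For p16 high against low in hippocampus and cortex, Kcnj6 in mouse 1163 was at 0.73, with the others between -0.094 and 0.28. For p16 high against low in MC, Kcnj10 in mouse 1151 was at 0.92, with the others between -0.0081 and 0.44. For p16 high against low in CP, Kcna1 in mouse 1162 was at 0.29, with the others between -0.55 and -0.21. For p16 high against low in CP, Kcnj6 in mouse 1170 was at 2.52, with the others between -0.029 and 0.86. For stress, each AOI was set against the midpoint of the CSS and control means of its p16 label, and AOIs were averaged by mouse. Some mice lack an AOI of 1 label, so the group means need not mirror each other. Among the 6 CSS mice in CA1, Kcnt2 in mouse 1170 was at 0.73, with the others between 0.037 and 0.28. Among the 6 CSS mice in CA1, Kcne1l in mouse 1170 was at 2.36, with the others between -0.57 and 0.36. Among the 4 control mice in CA3, Kcnk16 in mouse 1182 was at 2.37, with the others between -0.21 and 0.067. Among the 4 control mice in CP, Kcnn4 in mouse 1182 was at -1.89, with the others between -0.037 and 0.086. The Kcnt2 and Kcne1l values of mouse 1170 come from 1 AOI with a median gene count of 8. Those of Kcnk16 and Kcnn4 in mouse 1182 come from 1 AOI each, with median gene counts of 10 and 8. The Kcnn4 signal there was 2.76, below the negative probe at 11.4, so these values rest on few counts.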

How the results depend on the processing

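With 75th percentile scaling the calls numbered 74 in CA1 versus cortex, 67 in CA3 versus cortex and 81 among the 4 areas, against 48, 41 and 53 with median scaling. The 75th percentile scaling moved the median of all genes to -0.45 in CA1 versus cortex. Shares of all genes are given above for median scaling only. Without a replicate block, 30 genes differed between CA3 and CA1, 47 between CA1 and cortex and 38 between CA3 and cortex, and no count moved by over 1.5 times. Leaving out 1 mouse gave 32 to 37 calls between CA3 and CA1, 45 to 51 for CA1 and 38 to 42 for CA3 against cortex, 49 to 54 for CP, 0 to 2 for p16 in hippocampus and cortex and 0 to 4 for p16 in CA3. For p16 in hippocampus and cortex, where 0 genes passed, 1 passed with a pseudocount of 10, 2 among genes above the median signal, 1 with edgeR and 1 with the background covariate. Kcnab2 and Kcnj4 did not pass with quantile normalization or 75th percentile scaling. Kcna1 in CA3 versus cortex was not called with quantile normalization, at 0.12 (adjusted p = 0.115); the cause was not tested. CSS against control gave 0 calls in every setting run. Genes near the negative probe have compressed differences, and AOIs with few counts limit them most.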
